A study of Mus musculus with 15 samples.

Results

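The genes described here are 10 genes of glucose uptake and glycolysis, *Slc2a1*, *Hk1*, *Hk2*, *Pfkl*, *Pfkp*, *Aldoa*, *Pgk1*, *Pkm*, *Ldha* and *Pdk1*, taken from the count table by symbol. Each matched 1 entry of the count table, so they are 10 of its 56832 genes, and all 10 were among the 17204 genes that passed the filter on low counts. They were measured by bulk RNA-sequencing in mesenchymal stromal cells (MSCs) cultured from the bone marrow of 16 week old C57BL/6J mice at 2% oxygen. The mice were TauT+/+ (WT) or carried a global loss of the taurine transporter TauT, encoded by *Slc6a6* (TauT-/-, KO). The 15 libraries are labelled as 4 WT and 4 KO male samples and 3 WT and 4 KO female samples, and the labels do not say whether each library came from a separate animal. The p-values therefore measure the spread between these libraries, which may in part be technical.

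Glycolysis splits glucose into pyruvate in the cytosol and yields ATP without oxygen. Glucose enters through transporters such as GLUT1 and is trapped by hexokinase, phosphofructokinase commits it to the pathway, and aldolase, phosphoglycerate kinase and pyruvate kinase carry it to pyruvate. Lactate dehydrogenase then turns pyruvate into lactate, while the pyruvate dehydrogenase complex, which is held back by pyruvate dehydrogenase kinases, sends it into mitochondria. MSCs of the marrow live at low oxygen, and many glycolytic genes are targets of hypoxia-inducible factors.

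Values per library are given in CPM, which divides each count by the library's TMM-scaled total. The male-labelled libraries held 69764291 to 101575071 counts and the female-labelled ones 12761107 to 20781070, so that depth and sex label cannot be told apart, although both genotypes were sequenced at each depth. *Slc6a6* itself had 592 to 2591 CPM in WT and 401 to 1521 CPM in KO libraries, overlapping ranges with a log2 fold change of −0.97 (interval −1.74 to −0.21, adjusted p = 0.125 in edgeR). Each library is therefore called only what its label says. *Xist* and *Ddx3y*, genes of the inactive X and of the Y chromosome, did not match the sex label of 3 libraries, those labelled WT male 1, KO male 1 and WT female 3. The libraries labelled WT male 1 and WT female 1 were nearly alike, as were KO male 1 and KO female 1. Across tested genes above a floor on mean CPM, the scaled median absolute deviation of their log2 ratio was 0.108 and 0.0978. The next closest of the 105 pairs of libraries had 0.263. Values without these libraries are given beside the results they bear on.

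The label of the cells was checked against marker genes. Of the 11 stromal markers, all were measured, and transcripts of *Col1a1*, the main collagen of bone matrix, and *Pdgfrb*, a receptor of stromal cells, were present in every library at 2323 to 22911 and 256 to 892 CPM. *Lepr*, a defining receptor of marrow stroma, was at most 2.4 CPM. Others of the 11 varied widely between libraries, *Cxcl12* from 86.5 to 23382 CPM, *Pdgfra* from 17.2 to 565 CPM and *Eng* from 4.3 to 472 CPM. All 16 macrophage markers were also measured: *Ptprc*, which encodes CD45, the antigen by which blood cells were removed, had 27.9 to 370 CPM, and the macrophage lysozyme gene *Lyz2* had 723 to 11523 CPM. The macrophage markers summed to 1463 to 9972 CPM (median 8592) in WT and 6987 to 21508 CPM (median 16078) in KO libraries. The 11 stromal markers summed to 27877 to 47226 CPM in WT and 6096 to 40070 CPM in KO libraries. In bulk libraries, fewer cells of a type and less RNA per cell cannot be told apart, and the part of these other cells in the results below was not tested apart from a fit with the macrophage markers as a covariate. Erythroid and lymphoid markers, 6 each, were under 1 CPM in every library.

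Compared per kilobase of the canonical transcript, the WT levels of the genes ran from about 10.2 to 1166 CPM per kb. *Aldoa* was highest at 1166 ± 145 CPM per kb (SD, n = 7), ahead of *Ldha* at 776 ± 117 and *Pkm* at 693 ± 205 CPM per kb, which did not differ beyond their spread. *Pgk1* followed at 217 ± 40.0 CPM per kb and *Pfkl* at 116 ± 30.8 CPM per kb. *Hk1* had 57.2 ± 18.1 CPM per kb. *Pdk1* (35.4 ± 7.68), *Slc2a1* (35.0 ± 8.98) and *Pfkp* (32.1 ± 16.4 CPM per kb) lay together within their spread, and *Hk2* was lowest at 10.2 ± 3.37 CPM per kb. Within the enzyme pairs of the list, *Hk1* was thus more abundant than *Hk2*, and *Pfkl* more abundant than *Pfkp*. In KO libraries *Aldoa*, *Pkm* and *Ldha* were again the highest, at 1557 ± 676, 1149 ± 305 and 1023 ± 304 CPM per kb (SD, n = 8), and *Hk2* again the lowest at 20.1 ± 31.8 CPM per kb.

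Since many of these genes are known targets of hypoxia-inducible factors, their promoters were read for ACGTG, a form of the core of the factors' binding motif, on both strands. Other forms of that core were not searched. Of the 10 genes, 6 held it in the 250 bases before a start site of the RefSeq table (60%), against 4998 of the 27025 genes of that table (18.5%). Those 6 were *Slc2a1*, *Hk2*, *Aldoa*, *Pgk1*, *Pkm* and *Ldha*. A match is a description of the letters and not a bound site, and part of the matches also belong to CACGTG, the E-box read by other factors. The windows of the transporter gene, of both genes with the smallest p-values below and of the gene with the most matches are shown 5′ to 3′ on the gene's strand (RefSeq, GRCm38.p6), with ACGTG, or CACGT for the other strand, in capitals. They are chr4:119108495-119108744 (+) for *Slc2a1*, chrX:106186850-106187099 (+) for *Pgk1*, chr9:59656977-59657226 (+) for *Pkm*, which is the second of its start sites, and chr7:46845554-46845803 (+) for *Ldha*.
Slc2a1: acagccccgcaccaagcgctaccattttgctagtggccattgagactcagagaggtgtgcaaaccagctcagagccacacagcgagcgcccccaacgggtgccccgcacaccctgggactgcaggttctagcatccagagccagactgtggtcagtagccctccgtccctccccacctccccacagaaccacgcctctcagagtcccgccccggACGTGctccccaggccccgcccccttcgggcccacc
Pgk1: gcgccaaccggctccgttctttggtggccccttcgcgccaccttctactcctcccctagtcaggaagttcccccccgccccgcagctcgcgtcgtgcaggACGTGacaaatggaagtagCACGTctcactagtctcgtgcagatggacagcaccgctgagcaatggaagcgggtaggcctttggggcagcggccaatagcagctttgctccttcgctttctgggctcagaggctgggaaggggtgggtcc
Pkm: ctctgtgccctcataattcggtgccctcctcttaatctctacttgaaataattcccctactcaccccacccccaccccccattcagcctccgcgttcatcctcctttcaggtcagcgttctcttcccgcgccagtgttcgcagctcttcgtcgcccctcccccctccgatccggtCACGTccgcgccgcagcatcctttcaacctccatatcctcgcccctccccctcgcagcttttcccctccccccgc
Ldha: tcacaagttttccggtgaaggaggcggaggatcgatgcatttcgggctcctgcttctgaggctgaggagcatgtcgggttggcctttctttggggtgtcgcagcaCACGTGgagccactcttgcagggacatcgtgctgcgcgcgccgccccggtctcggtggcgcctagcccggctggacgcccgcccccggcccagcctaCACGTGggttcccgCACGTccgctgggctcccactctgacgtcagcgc
*Slc2a1* holds 1 match on its own strand, *Pgk1* holds 1 on each strand and *Pkm* holds 1 on the other strand. *Ldha* holds 5 matches, 4 of which are the paired strands of 2 E-boxes.

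The question behind the genotype comparison was how loss of taurine uptake affects the metabolism of MSCs. Of the 10 genes, 9 had a fitted log2 fold change above 0 in KO relative to WT libraries, all but *Pfkl*, with a median of 0.44. Over all 17204 genes tested 48.3% were above 0 and the median was −0.02. Among the 1667 genes at least as abundant as the lowest of the 10, by mean CPM over all 15 libraries, 60.8% were above 0 with a median of 0.08. That mean includes the KO libraries, so genes raised in KO enter this set more easily. The part of this in the 60.8% was not tested. None of the 10 passed an adjusted p of 0.05 in the edgeR quasi-likelihood test with Benjamini-Hochberg adjustment, a threshold that 1.3% of all genes passed. *Pgk1* and *Pkm* were higher at an unadjusted p under 0.05, where 10.6% of all genes lay, and these same genes were called by DESeq2, which called 5.28% of all genes as higher. In no gene of the list did every KO library lie above every WT library, a separation found in 0.692% of all genes tested.

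**Figure D1:**
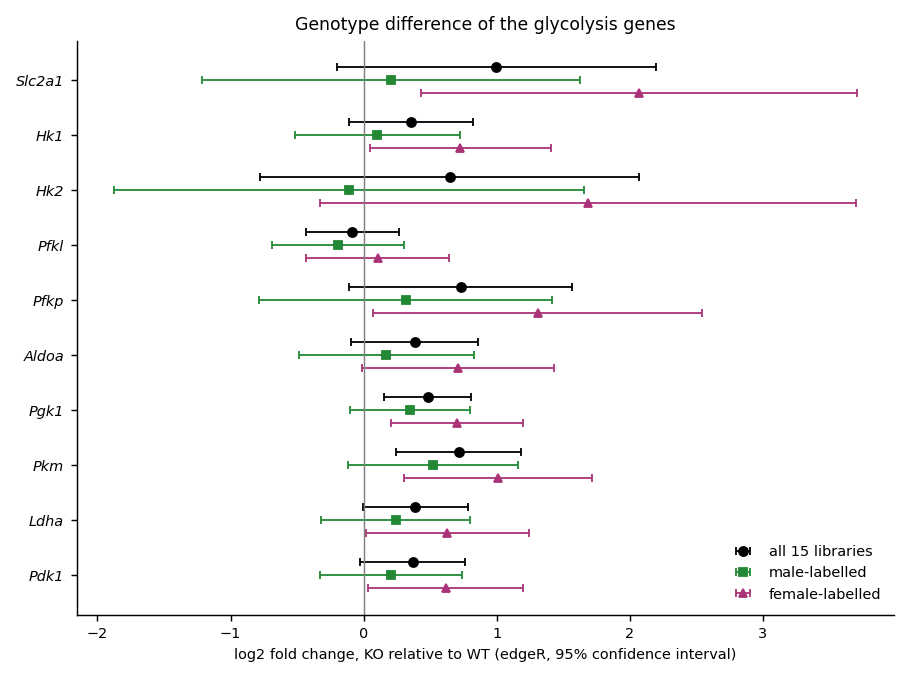
Log2 fold change of the 10 genes in KO relative to WT libraries (x axis, edgeR, bars are 95% confidence intervals), for all 15 libraries in black, male-labelled libraries in green and female-labelled libraries in purple. With all libraries, only the intervals of *Pgk1* (0.15 to 0.81) and *Pkm* (0.25 to 1.18) lie above 0.

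*Slc2a1* on chromosome 4 (118965908 to 118996365, GRCm39) encodes GLUT1, the transporter that takes up glucose in most cell types. It had 150, 108, 145 and 236 CPM in WT male libraries 1 to 4 and 148, 133 and 169 CPM in WT female libraries 1 to 3. KO male libraries 1 to 4 had 123, 137, 180 and 284 CPM, and KO female libraries 1 to 4 had 126, 133, 474 and 1679 CPM. Of the 8 KO libraries 3 lay above the highest WT library, and the other 5 were within the WT range, with group medians of 148 and 158 CPM. The means were 155 ± 39.9 CPM in WT (SD, n = 7) and 392 ± 534 CPM in KO (SD, n = 8), and the log2 fold change of 1.00 (95% interval −0.20 to 2.20, edgeR adjusted p = 0.296) was the largest of the list. Without KO female 4 it was 0.41.

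*Hk1* (chromosome 10, 62104621 to 62215687) encodes the hexokinase of most tissues, which traps glucose as glucose 6-phosphate. WT male libraries had 195, 215, 240 and 415 CPM, and WT female libraries 193, 240 and 217 CPM. KO male libraries had 263, 344, 247 and 274 CPM, and KO female libraries 260, 211, 454 and 466 CPM. The groups overlapped, with only KO female 3 and 4 above the highest WT library, and the log2 fold change was 0.36 (SE 0.22, adjusted p = 0.336 in edgeR).

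*Hk2* (chromosome 6, 82699740 to 82751469) encodes the inducible hexokinase of muscle and of growing or hypoxic cells. It had 77.2, 37.7, 86.6 and 120 CPM in WT male and 80.4, 58.7 and 94.98 CPM in WT female libraries. KO male libraries had 31.5, 33.9, 63.8 and 162 CPM and KO female libraries 32.6, 88.8, 79.7 and 761 CPM. Both the highest and the 3 lowest values of all 15 libraries were in KO, the latter including the near-identical KO male 1 and KO female 1, and the KO median, 71.8 CPM, was under the WT median of 80.4 CPM. The log2 fold change was 0.65 with a wide interval (−0.78 to 2.07, edgeR adjusted p = 0.581), and it was −0.18 without KO female 4. Without the male-labelled or the female-labelled libraries of the near-identical pairs it was 0.90 or 0.63, and without the 3 libraries of mismatched sex 0.89.

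Phosphofructokinase carries the committed step of glycolysis. *Pfkl* (chromosome 10, 77818084 to 77845922), the liver-type subunit, had 403, 467, 436 and 755 CPM in WT male and 398, 413 and 446 CPM in WT female libraries. It had 489, 434, 394 and 466 CPM in KO male and 445, 288, 443 and 579 CPM in KO female libraries. No KO library lay above the highest WT library, WT male 4, and the log2 fold change was −0.08 (interval −0.44 to 0.27, edgeR adjusted p = 0.793), the only one of the list below 0.

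*Pfkp* (chromosome 13, 6629798 to 6698970), the platelet-type subunit, had 121, 77.7, 117 and 294 CPM in WT male and 118, 110 and 129 CPM in WT female libraries. KO male libraries had 140, 187, 158 and 261 CPM and KO female libraries 140, 86.9, 390 and 523 CPM. Of the KO libraries 7 lay above the WT median of 118 CPM, but only KO female 3 and 4 lay above WT male 4, and the log2 fold change was 0.73 (SE 0.39, adjusted p = 0.276 in edgeR). Along 42.5% of its canonical transcript, *Pfkp* shares sequence with the overlapping gene *Pitrm1*, which had 79.5 ± 6.76 CPM in WT and 84.2 ± 19.7 CPM in KO. The library kit is not stated to keep strand while the reads were counted by strand, so reads of that overlap cannot be told apart.

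*Aldoa* (chromosome 7, 126393822 to 126399923) encodes the aldolase that cleaves fructose 1,6-bisphosphate. WT male libraries had 1714, 1539, 1722 and 2218 CPM and WT female libraries 1784, 1599 and 1756 CPM. KO male libraries had 1697, 1959, 2061 and 2283 CPM and KO female libraries 1689, 1692, 2721 and 4720 CPM. The WT libraries other than WT male 4 were tightly grouped, 3 KO libraries lay in the same range, and 3 KO libraries lay above the highest WT library. The log2 fold change was 0.39 (SE 0.22, adjusted p = 0.311 in edgeR).

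*Pgk1* (chromosome X, 105230706 to 105247305) encodes phosphoglycerate kinase, the first enzyme of the pathway that makes ATP. It had 382, 331, 456 and 525 CPM in WT male and 369, 315 and 395 CPM in WT female libraries, and 518, 457, 534 and 620 CPM in KO male and 515, 391, 652 and 718 CPM in KO female libraries. Of the KO libraries 7 lay above 6 of the 7 WT libraries, and 4 lay above all of them. The means were 396 ± 73.0 CPM in WT and 551 ± 107 CPM in KO, and the log2 fold change was 0.48 (interval 0.15 to 0.81). Its p was 0.00687 before and 0.0926 after adjustment in edgeR, and 0.0250 after adjustment in DESeq2. With any 1 library left out it stayed between 0.42 and 0.56. *Pgk1* is X-linked, and without the 3 libraries of mismatched sex its log2 fold change was 0.53, against 0.79 for *Pkm*.

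*Pkm* (chromosome 9, 59563364 to 59586663) encodes the muscle and fetal forms of pyruvate kinase, which makes pyruvate and ATP; the counts per gene do not separate these splice forms. It had 1300, 1140, 2160 and 2497 CPM in WT male and 1348, 1536 and 1888 CPM in WT female libraries. It had 2146, 2414, 2531 and 2956 CPM in KO male and 2155, 2512, 3470 and 4309 CPM in KO female libraries. Of the KO libraries 5 lay above every WT library, and 5 of the 7 WT libraries lay below every KO library. Among the female-labelled libraries the groups did not overlap, which was so for 6.29% of all genes, while among the male-labelled ones none of the 10 genes separated, against 2.24% of all genes. The means were 1696 ± 501 CPM in WT and 2812 ± 746 CPM in KO, and the log2 fold change was 0.72 (interval 0.25 to 1.18). Its p was 0.00549 before and 0.0858 after adjustment in edgeR, and 0.0157 after adjustment in DESeq2. Most of its transcript, 81.4%, is near-identical to stretches of 3 other genes, which together had 4.22% of its CPM. Such stretches also cover 92.3% of the *Ldha* transcript, 86.2% of *Aldoa*, 68.8% of *Pgk1*, 24.2% of *Pfkl* and 7.99% of *Hk1*. The genes that share them had, in that order, 0.034%, 0%, 0.027%, 3.04% and 0.216% of the CPM of the listed gene.

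*Ldha* (chromosome 7, 46490899 to 46505061) encodes the lactate dehydrogenase subunit that favours lactate formation. WT male libraries had 1069, 1133, 1418 and 1493 CPM and WT female libraries 1017, 1147 and 1346 CPM. KO male libraries had 1225, 1681, 1651 and 1419 CPM and KO female libraries 1179, 1320, 1853 and 2667 CPM. Each KO library lay above at least 4 of the 7 WT libraries, and 4 lay above all of them. The log2 fold change was 0.39 (SE 0.19, adjusted p = 0.219 in edgeR).

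*Pdk1* (chromosome 2, 71703488 to 71734202) encodes a kinase that shuts off pyruvate dehydrogenase. It had 203, 186, 144 and 267 CPM in WT male and 183, 169 and 156 CPM in WT female libraries. It had 281, 171, 177 and 283 CPM in KO male and 287, 157, 299 and 268 CPM in KO female libraries. Of the KO libraries 3 lay inside the WT range, at 157 to 177 CPM, and 5 lay above every WT library, at 268 to 299 CPM. These 5 include those of the near-identical libraries KO male 1 and KO female 1. The log2 fold change was 0.37 (SE 0.18, adjusted p = 0.237 in edgeR). Without the male-labelled or the female-labelled libraries of the near-identical pairs it was 0.34 or 0.36, and without the 3 libraries of mismatched sex 0.32.

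**Figure D2:**
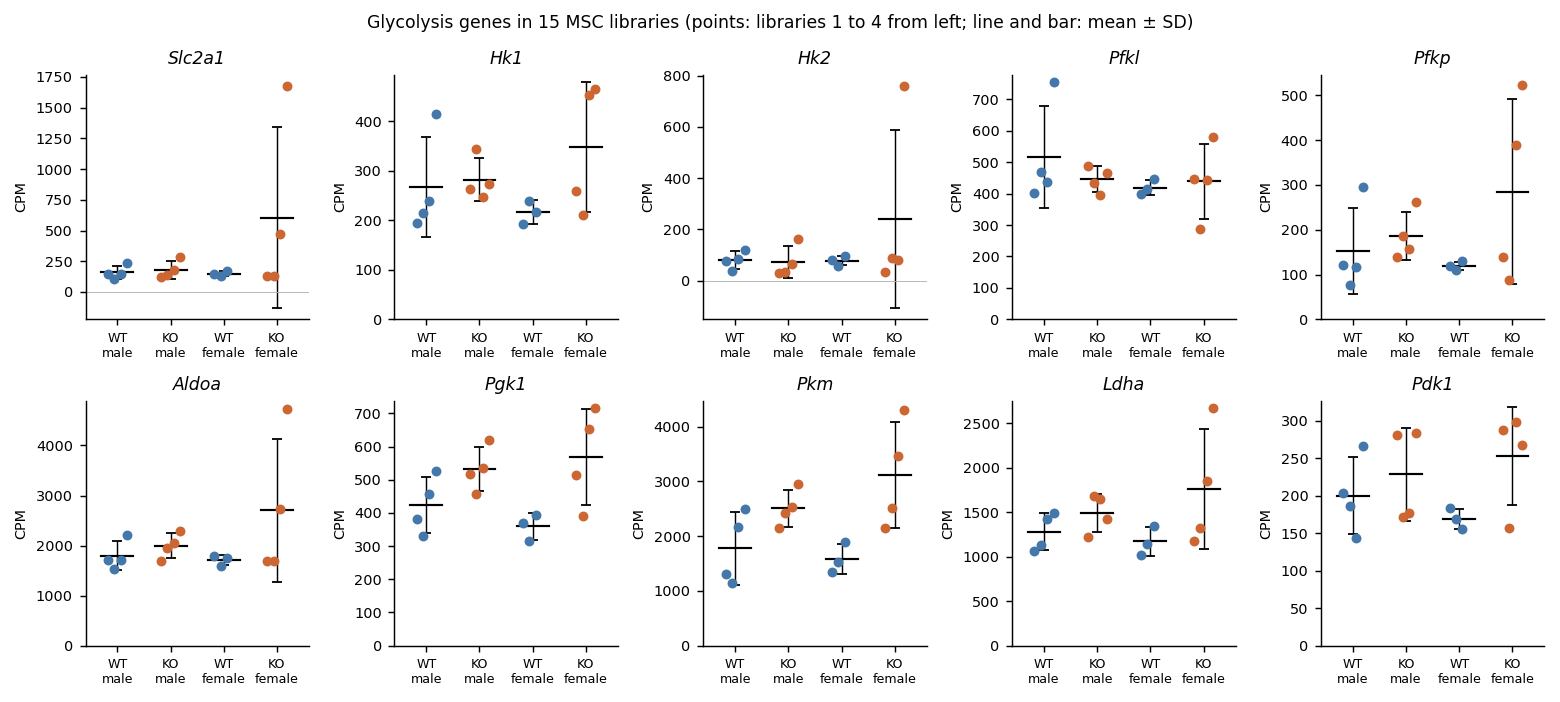
CPM (y axis) of each of the 10 genes in every library, by labelled sex and genotype, with points for libraries 1 to 4 from left and lines and bars for mean ± SD. KO female 4 stands far above the rest for *Slc2a1* (1679 CPM) and *Hk2* (761 CPM), while the *Pkm* values of KO libraries, at 2146 to 4309 CPM, lie mostly above those of WT libraries, at 1140 to 2497 CPM.

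Libraries that were high in one gene of the list were often high in the others, in both genotypes. KO female 4 was the highest library for 8 of the 10 genes and KO female 3 the second highest for 7, and KO male 4 was among the 3 highest for 6. WT male 4 lay above the WT mean in all 10 genes, with a median of 0.62 on the log2 scale, close to KO male 4 at 0.65 and KO female 3 at 0.72, while KO female 2 had a median of −0.11. The 10 genes summed to 5234 to 8820 CPM in WT (median 5721) and to 6829 to 16689 CPM in KO (median 7907). The sums of WT male 4, KO male 4, KO female 3 and KO female 4 were the 4 highest, at 8820, 9010, 10835 and 16689 CPM. The same 4 libraries were also the 4 highest in the sum of 24 other hypoxia response genes, at 6523, 4946, 5528 and 10486 CPM. By genotype that sum overlapped, at 2990 to 6523 CPM in WT (median 3831) and 2910 to 10486 CPM in KO (median 3667). KO female 4 had the highest macrophage sum, 21508 CPM, and the lowest sums of stromal and of proliferation markers, 6096 and 150 CPM, and the part of these in its values was not tested.

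**Figure D3:**
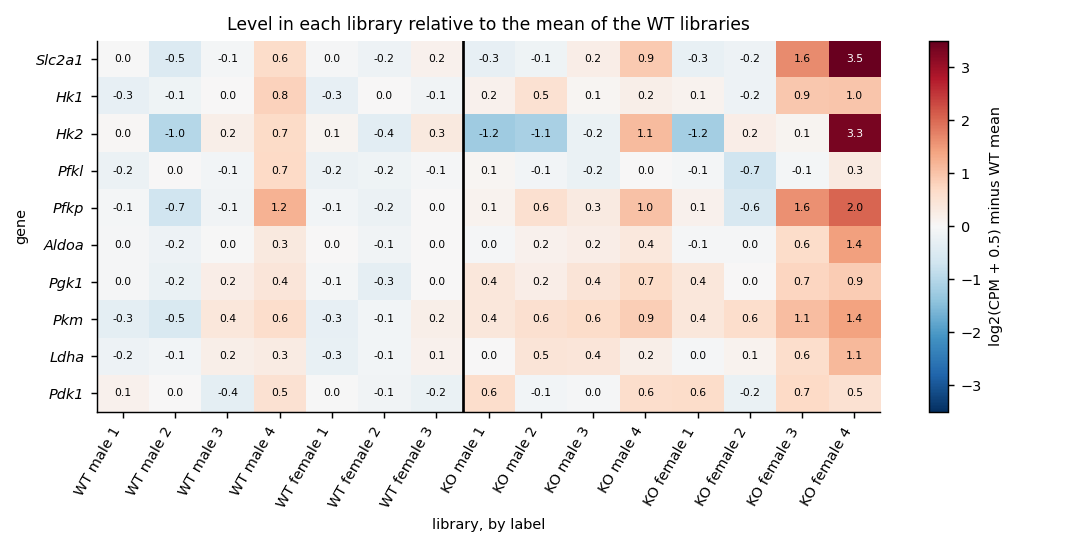
Level of each gene (rows) in each library (columns, WT left and KO right of the black line) as log2(CPM + 0.5) minus the mean of the WT libraries, printed in each cell and coloured from blue to red. WT male 4, KO male 4, KO female 3 and KO female 4 are raised across most genes, and KO female 4 reaches 3.5 for *Slc2a1*.

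Leaving out KO female 4 moved the median log2 fold change of the list from 0.44 to 0.31, the lowest of the 15 fits of this kind, and leaving out WT male 4 moved it to 0.54, the highest. Without KO female 4 *Pkm* was at 0.62, *Pgk1* at 0.42 and *Aldoa* at 0.19, and 2 of the 10 genes lay below 0. Without the 3 libraries of mismatched sex the median was 0.51, and without the male-labelled or the female-labelled library of the near-identical pairs it was 0.46 or 0.48. With the mean of the macrophage markers as a covariate the median was 0.36, with *Pkm* at 0.48, *Pgk1* at 0.38 and *Slc2a1* at 0.47. No gene of the list reached an unadjusted p under 0.05 in that edgeR fit, where 2039 of 19164 genes did.

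**Figure D4:**
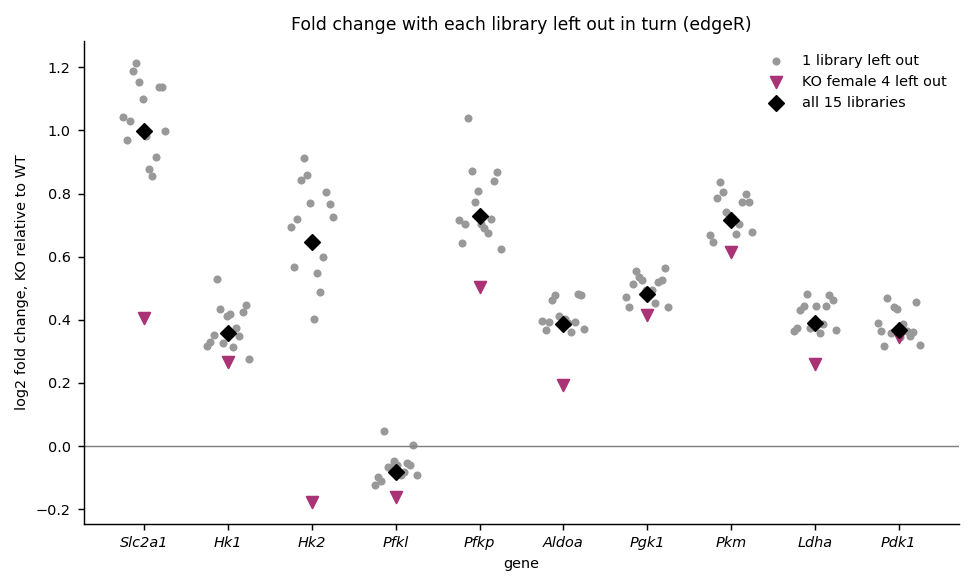
Log2 fold change (y axis) of each gene (x axis) with all 15 libraries (black diamonds), with each other library left out in turn (grey points) and without KO female 4 (purple triangles). *Slc2a1* drops from 1.00 to 0.41 and *Hk2* from 0.65 to −0.18 without that library, while *Pgk1* and *Pkm* stay at 0.42 and 0.62.

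By sex label, the median log2 fold change of the 10 genes was 0.21 in male-labelled and 0.72 in female-labelled libraries, with 8 and 10 of the 10 genes above 0. Over all 17204 genes tested these medians were −0.01 and 0.03, with 8375 and 9024 genes above 0. Among the 1667 genes at least as abundant as the lowest of the 10, they were 0.07 and 0.17, with 993 and 1104 above 0. *Slc2a1* was at 0.21 and 2.07, *Hk2* at −0.11 and 1.69, *Pgk1* at 0.35 and 0.70, and *Pkm* at 0.52 and 1.01. The difference between the labels itself, tested in edgeR with 1 term per group, reached an unadjusted p under 0.05 in none of the 10 genes (the smallest was 0.0806, for *Slc2a1*), against 1.62% of all genes, and in no gene of the table after adjustment. DESeq2 also called none of the 10 for this difference. In edgeR 1 of the 10 had an unadjusted p under 0.05 without the female-labelled libraries numbered 1, where 475 of 19021 genes did. The same held for 1 of the 10 without KO female 1 (561 of 18162 genes) and without KO female 2 (511 of 18148 genes). None of the 10 was called after adjustment. The sex label of 3 libraries did not match their sex-linked genes, and the difference was not tested without those 3. Both KO female 3 and KO female 4 bear the female label, so that the larger values there and those libraries cannot be told apart.

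Ratios between paralogues compare genes within a library, where library scaling cancels. The ratio of *Slc2a1* to *Slc2a3*, the gene of the high-affinity transporter GLUT3, had a mean of 4.08 ± 0.83 on the log2 scale in WT (SD, n = 7) and 5.94 ± 0.76 in KO (SD, n = 8). Of the KO libraries 7 of 8 lay above every WT library. The label-adjusted difference was 1.84 (two-sided exact permutation test within sex labels, p = 0.000816, adjusted over 4 ratios 0.00327). Without the male-labelled or the female-labelled libraries of the near-identical pairs it was 2.02 or 1.91 (adjusted exact permutation p = 0.00571 and 0.0114), and without the 3 libraries of mismatched sex 2.27 (adjusted exact permutation p = 0.0133). *Slc2a3* was scarce, at 4.1 to 17.3 CPM in WT and 1.3 to 15.7 CPM in KO libraries, and its own log2 fold change was −1.27 (edgeR adjusted p = 0.201). By sex label, *Slc2a3* was at −2.22 in male-labelled and −0.0012 in female-labelled libraries, where *Slc2a1* was at 0.21 and 2.07. Under the male label the ratio thus differed mainly through *Slc2a3*. Under the female label only KO female 3 and 4 had more *Slc2a1* than the WT female libraries, at 474 and 1679 CPM. KO female 1 and 2 had 126 and 133 CPM of it. Their *Slc2a3* was 2.6 and 1.8 CPM, against 4.3 to 9.9 CPM in WT female libraries. The difference of *Slc2a3* between the labels had an unadjusted p of 0.0382 and an adjusted p of 1.00 in edgeR.

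The ratio of *Pfkp* to *Pfkl* was −1.86 ± 0.37 in WT and −1.11 ± 0.66 in KO on the log2 scale, a label-adjusted difference of 0.73 (two-sided exact permutation test, p = 0.0269, adjusted 0.0539). It exceeded every WT library in 5 of 8 KO libraries. The ratio of *Ldha* to *Ldhb*, the subunit that favours pyruvate, was 4.40 ± 1.54 in WT and 6.19 ± 1.96 in KO, with a difference of 1.80 (exact permutation p = 0.0935, adjusted 0.125). *Ldhb* ranged from 18.4 to 192 CPM in WT and from 2.8 to 79.5 CPM in KO libraries, with its 4 highest values, 75.1 to 192 CPM, in the libraries of the near-identical pairs. Without the male-labelled or the female-labelled ones of these the *Ldha* to *Ldhb* difference was 1.85 or 1.71, and without the 3 libraries of mismatched sex it was 2.04 (adjusted exact permutation p = 0.0622). The ratio of *Hk2* to *Hk1*, −1.65 ± 0.48 in WT and −1.89 ± 1.38 in KO, differed by −0.27 (exact permutation p = 0.635, adjusted 0.635).

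**Figure D5:**
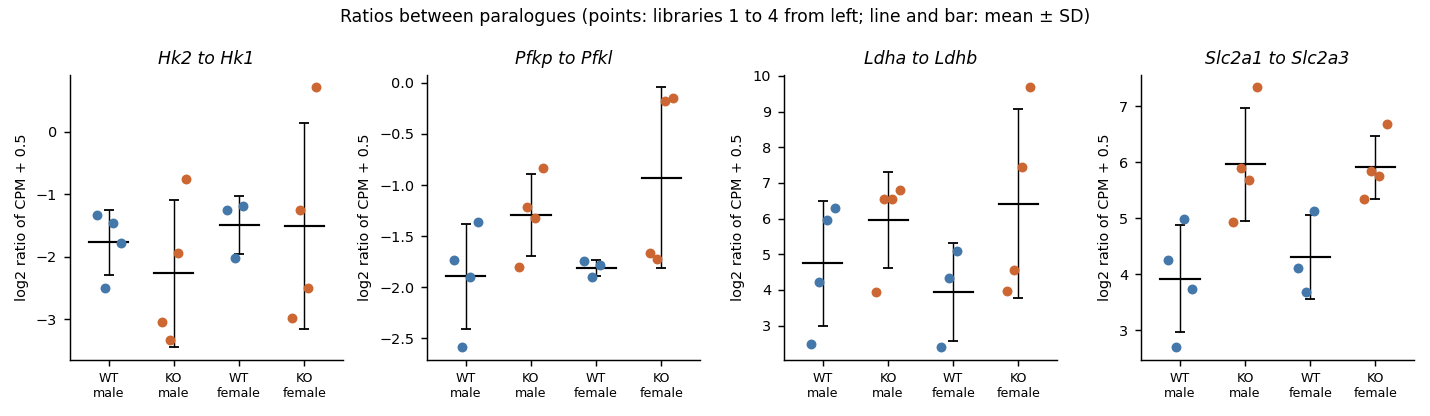
Log2 ratio of CPM + 0.5 (y axis) between paralogues in every library, by labelled sex and genotype (points for libraries 1 to 4 from left, lines and bars for mean ± SD). The *Slc2a1* to *Slc2a3* ratio lies above the WT libraries in 7 of 8 KO libraries, while the other ratios overlap more.

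Other genes of the pathway lay on both sides of 0, with the most abundant ones above it. Of 24 other glycolysis genes 19 were tested, with 10 above and 9 below 0 and a median log2 fold change of 0.01, and none was called by edgeR. The sum of the 24 was 3095 to 5092 CPM in WT (median 3997) and 3899 to 8289 CPM in KO (median 4645). The 5 most abundant, picked out after their values were seen, were each above 0, namely *Gapdh* at 0.41, *Eno1*, an enolase, at 0.28, *Tpi1*, triose phosphate isomerase, at 0.36, *Gpi1*, glucose phosphate isomerase, at 0.43, and *Pgam1*, with edgeR adjusted p-values of 0.0824 to 0.452. Those called by DESeq2 included *Pgam1*, the phosphoglycerate mutase that acts after *Pgk1* (0.49, edgeR adjusted p = 0.0824, DESeq2 0.0199) and *Hk3*, a hexokinase of blood cells (1.05, edgeR 0.105, DESeq2 0.0353). *Hk3* had 67.3 ± 31.5 CPM in WT and 151 ± 104 CPM in KO.

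Of 17 genes of pyruvate and lactate handling, 16 were tested and 7 were above 0, with a median of −0.02. *Pdk2*, another pyruvate dehydrogenase kinase, was at −0.62 (edgeR adjusted p = 0.1003, DESeq2 0.0469), *Mpc2*, a subunit of the mitochondrial pyruvate carrier, at −0.40 (edgeR 0.109), and *Slc16a3*, the lactate exporter MCT4, at 0.67 (edgeR 0.136). The pentose phosphate genes, 4 of 7 above 0 with a median of 0.02, included *Tkt*, the transketolase of its non-oxidative branch, at 0.28 (edgeR 0.0950, DESeq2 0.0102). *G6pdx*, the entry enzyme, was at −0.42 (edgeR 0.314) and *Taldo1*, the transaldolase, at 0.38 (edgeR 0.439).

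The 24 hypoxia response genes other than the 10 were all tested, and 17 were above 0 with a median log2 fold change of 0.30. Their smallest p-values belonged to *Angptl4*, an inhibitor of lipoprotein lipase, at −1.29 (edgeR adjusted p = 0.0561, DESeq2 0.00407), *Hif1an*, the hydroxylase that restrains the factors, at 0.28 (edgeR 0.153), and *Epas1*, which encodes HIF-2α, at −1.15 (edgeR 0.170). Of the 15 proliferation markers 14 were above 0 with a median of 0.62, and 1 was called by edgeR, *Pcna*, the clamp of DNA polymerase, which rose from 46.7 ± 7.04 to 72.4 ± 12.4 CPM (0.62, adjusted p = 0.0293). Of the 16 macrophage markers 15 were above 0 with a median of 0.90, and *Cd68* was called by edgeR (1.46, adjusted p = 0.0445). Neither *Pcna* nor *Cd68* was called without the 3 libraries of mismatched sex, where edgeR called 0 genes. Without the male-labelled or the female-labelled libraries numbered 1 it called 2 or 7 genes. The stromal markers had 9 of 11 below 0 with a median of −0.59, and the 5 endothelial markers tested had 4 above 0 with a median of 0.61. The 6 endothelial markers listed summed to 6.8 to 18.9 CPM in WT and 10.6 to 110 CPM in KO libraries. Of these, 2 were under 1 CPM in every library. By sex label the median of the endothelial list was 0.54 in male-labelled and −0.16 in female-labelled libraries.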

How the data were processed

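The authors made cDNA by oligo-dT priming, amplified it by PCR and sequenced paired reads of 150 nt. Per the submitters' processing notes, fastp 0.23.1, STAR 2.7.9a and featureCounts of Subread 2.0.1 were used with build GRCm39, and the study's methods name GENCODE M31 and counting by strand (its text calls this mouse reference human). The deposited table holds raw read counts for each gene in each library.

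All 15 libraries entered a quasi-likelihood fit of edgeR 4.0.16 in R 4.3.3 (TMM, filterByExpr, terms for sex label and genotype), and p was adjusted over all 17204 genes tested by the Benjamini-Hochberg method with a threshold of 0.05. DESeq2 1.42.0 and voom of limma 3.58.1 were alternatives, as were other normalizations and filters, other covariates, the replicate block, each sex label alone and fits without some libraries. Ratios of paralogues, log2 of CPM + 0.5, were tested by two-sided exact permutation within sex labels (NumPy 2.4.6, 2450 assignments). CPM per kb used the Ensembl canonical transcript of GENCODE M39, a later annotation of the same build, and near-identical sequence was found with BLAST+ 2.17.0 (at least 95% identity over 150 nt). Promoter windows come from RefSeq on GRCm38.p6, and all 10 genes matched by symbol. The scripts were tested on simulated data. Total counts limit the precision of each value.

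The 10 genes and the other lists were chosen with earlier results of these data known. Named are the 10 genes, *Slc6a6*, in each other list the genes past the threshold in edgeR or DESeq2 and the 3 with the smallest edgeR p, and of marker lists the defining genes. One gene that this rule names is not reported here. The calls of DESeq2 in the macrophage, stromal and endothelial lists are given as counts in the closing section.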

Additional observations from a re-analysis of the deposited data

Results flagged for a closer look

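In 45 groups of 4 libraries (15 values in each of 3 groups), a library was looked for that stood apart from the other 3 by Dixon's test, which by chance marks about 5% of groups, or 2.25 here, and 2 were found. *Hk2* in KO female 4, at 761 CPM against 32.6 to 88.8 CPM in the other KO female libraries, had a gap of 0.923 of the group's range. The log2 ratio of *Ldha* to *Ldhb* in KO male 1, at 3.94 against 6.54 to 6.81 in the other KO male libraries, had a gap of 0.906 of the range. KO male 1 is one of the near-identical pair with KO female 1, whose ratio was 3.96, and its sex-linked genes went against its label.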

How the results depend on the processing

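All genes but *Hk2* and *Pfkl* kept a log2 fold change above 0 in each of the 29 alternative fits. *Hk2* turned to −0.32 with the replicate block, −0.072 in voom, −0.36 with the macrophage covariate and −0.12 in male-labelled libraries alone, and ranged from −0.18 to 0.91 with 1 library left out. *Pfkl* turned to 0.0010 with the macrophage covariate and 0.088 in female-labelled libraries alone, and ranged from −0.16 to 0.049 with 1 library left out, above 0 without WT male 4 or KO female 2. The causes were not tested. DESeq2 and voom each called 2 of the 10 genes, *Pgk1* and *Pkm*, and no other fit called any, where the unadjusted p was under 0.05 for 0 to 6 of them. The 6 were in the edgeR fit without WT male 4, where 3896 of 15990 genes were under 0.05. With all 15 libraries it was 2, against 4066 of 17204 genes. It was 0 with the macrophage covariate (2039 of 19164 genes) and in male-labelled libraries alone (1278 of 16779 genes). The difference between sex labels was called for none of the 10 in any fit.

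Over all genes edgeR called 223, against 2091 in DESeq2, 1319 in voom, 471 without the sex term, 132 with the replicate block and 74 without the filter. It called 12 to 1255 with 1 library left out (1255 without WT male 3), 2 or 7 without the male-labelled or female-labelled libraries numbered 1, and 0 with the macrophage covariate, in male-labelled or female-labelled libraries alone or without the 3 libraries of mismatched sex, where 2039, 1278, 2014 and 3115 genes had an unadjusted p under 0.05.

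The *Slc2a1* to *Slc2a3* difference stayed past the threshold, at 1.59 to 2.03 with 1 library left out and 1.74 with the replicate block, but not in male-labelled (2.05, adjusted exact p = 0.229) or female-labelled libraries alone (1.60, adjusted exact p = 0.114), where few reassignments exist. The *Pfkp* to *Pfkl* difference passed with the replicate block (0.61, adjusted exact p = 0.0417) and without the male-labelled libraries numbered 1 (0.86, adjusted exact p = 0.0457), and was 0.61 to 0.83 with 1 library left out, passing in 6 of 15 fits. The *Ldha* to *Ldhb* difference passed with the replicate block only (1.29, adjusted exact p = 0.0312), and was 1.29 to 2.18 with 1 library left out. The *Hk2* to *Hk1* difference turned from −0.27 to 0.014 without the 3 libraries of mismatched sex, a setting added for the ratios after the data were seen. The block takes KO female 4, which has no WT partner, out of the contrast. Same-numbered libraries deviated together in part (r −0.03 to 0.61 over 7 pairs, 5 over 0.1, and 11 of 14 libraries correlated best with their own number), and since 2 pairs were not over 0.1 the numbers were not taken as pairs.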

Other observations

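Some further genes of glucose metabolism were chosen after their values were seen. *Gapdh*, the dehydrogenase between aldolase and *Pgk1* and a common reference gene, had 1293 ± 292 CPM in WT and 1729 ± 406 CPM in KO (SD, n = 7 and 8), a log2 fold change of 0.41 (edgeR adjusted p = 0.203), and 88 other genes hold near-identical sequence. *Aldoc*, a scarcer aldolase, had 25.3 ± 7.42 and 43.5 ± 18.7 CPM (0.73, edgeR adjusted p = 0.124). *Pdk4*, the pyruvate dehydrogenase kinase induced by fasting and fatty acids, had 138 ± 52.9 and 56.6 ± 47.8 CPM (−1.33, edgeR adjusted p = 0.154), the opposite direction to *Pdk1*. *Hif1a*, which encodes the oxygen-regulated factor itself, had 329 ± 108 and 382 ± 51.9 CPM (0.22, edgeR adjusted p = 0.494).

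DESeq2 called 8 of the 16 macrophage markers as higher, 1 of the 11 stromal markers, *Pdgfra*, as lower and 1 of the 5 endothelial markers tested, *Kdr*, as higher.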
